A study of Mus musculus with 6 samples.

Results

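Complement and acute phase proteins form the soluble arm of innate defence, and 8 of their genes are described here in mouse alveolar macrophages, phagocytes that live on the airspace side of the lung. They were chosen by name from the 10539 listed genes: the secreted components C3, Cfb, C1qa and Cfp, the acute phase proteins Saa3 and Lcn2, and the anaphylatoxin receptors C3ar1 and C5ar1. All 8 were found, and 7 reached the mean of 1 FPKM (fragments scaled by gene length and by library total) that was required for a test, C3ar1 being the exception. The cells came from lungs of C57BL/6 mice and overexpressed C/EBPβ, a transcription factor of inflammatory and acute phase genes, in all 6 libraries. The 3 libraries labelled CEBPβ-A were made after these cells had been given an A20 adenovirus, A20 being a ubiquitin-editing enzyme and known brake on NF-κB signalling, and the 3 labelled CEBPβ from cells for which no A20 virus is named. The labels do not name the virus of the CEBPβ cells, the means of C/EBPβ overexpression or the age of the mice, and cells without C/EBPβ overexpression were not analysed here. Nothing ties replicates to separate animals or cultures, so p-values reflect the spread among the 3 libraries of a group, possibly a technical spread.

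Complement is a cascade of plasma proteins that marks particles for uptake. Its classical pathway starts with C1q, its alternative pathway runs on factor B and properdin, and both meet at C3. The fragments C3a, cut from C3, and C5a, cut from C5, call in leukocytes through the receptors encoded by C3ar1 and C5ar1. Acute phase proteins such as the serum amyloid A family and lipocalin 2 rise in inflammation under interleukin-1, interleukin-6 and TNF, largely through C/EBP factors, NF-κB and STAT3. Liver makes most of the circulating protein, and macrophages make some of these proteins locally.

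The windows before the start sites of C3, Saa3 and Cfp are shown because C/EBPβ was overexpressed in every library and because C3 and Saa3 were lower in each CEBPβ-A library than in any CEBPβ library while Cfp was not. RefSeq promoters (GRCm38.p6) were matched by symbol for 6 of the 8 genes. The sequences run 5′ to 3′ on the minus strand, on which all 3 genes lie, and leave out annotated exon bases. Capitals mark the C/EBP core TTNNGNAA, searched on both strands.
C3, chr17:57228137-57228386: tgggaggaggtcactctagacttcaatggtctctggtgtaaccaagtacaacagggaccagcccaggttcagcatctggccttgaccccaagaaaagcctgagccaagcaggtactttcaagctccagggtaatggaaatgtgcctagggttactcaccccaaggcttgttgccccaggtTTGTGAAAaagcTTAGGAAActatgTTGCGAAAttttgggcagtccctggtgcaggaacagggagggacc
Saa3, chr7:46715701-46715926: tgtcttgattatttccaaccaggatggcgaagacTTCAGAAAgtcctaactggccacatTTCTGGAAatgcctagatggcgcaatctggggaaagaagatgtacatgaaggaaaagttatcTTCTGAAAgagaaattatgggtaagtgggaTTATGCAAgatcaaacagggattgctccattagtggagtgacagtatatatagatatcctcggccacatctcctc
Cfp, chrX:20931556-20931805: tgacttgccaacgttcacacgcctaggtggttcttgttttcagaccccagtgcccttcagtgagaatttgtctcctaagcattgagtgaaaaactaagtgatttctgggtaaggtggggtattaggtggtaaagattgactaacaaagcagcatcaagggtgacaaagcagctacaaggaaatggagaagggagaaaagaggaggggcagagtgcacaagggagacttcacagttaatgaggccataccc
The window of C3 held 3 matches of the C/EBP core and that of Saa3 held 4. Those of C3 lay from 70 to 38 bases before the RefSeq start site. Those of Saa3 lay from 216 to 92 bases before its own RefSeq start. That count includes 24 exon bases next to the start, which the printed sequence leaves out. Lcn2 and C5ar1 had 1 match each, and Cfp and C3ar1 had none. Like C3 and Saa3, Lcn2 and C3ar1 were lower in each CEBPβ-A library than in any CEBPβ library, and C5ar1 was higher in each. The 3 windows shown were picked by outcome, and a link between matches and direction was not tested. The windows of Lcn2 and C5ar1 lie wholly or mostly inside the gene spans listed by the authors, which begin farther upstream, and 197 and 28 of their 250 bases are annotated as exon, so those 2 matches are upstream of the RefSeq start only. Of all 32851 promoter windows of 250 bases, 36.8% held at least 1 match and 2.62% at least 3. Neither the NF-κB consensus nor the STAT site TTCNNNGAA, which 3.90% and 7.02% of windows held, was found in the 6 windows. A match describes letters only and says nothing of binding.

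Tnfaip3, the gene of A20, stood at 7.94, 15.5 and 7.32 FPKM in CEBPβ-A replicates 1, 2 and 3 and at 8.76, 17.7 and 19.2 in CEBPβ, so the mouse gene does not show the delivery that the labels name (limma adjusted p = 0.606; log2 fold change −0.53), and directions here are between libraries as labelled. A delivered A20 sequence may not be counted at the mouse gene, so the value does not tell whether A20 was delivered. Cebpb lay between 363 and 500.02 FPKM in the 6 libraries, with overlapping groups. Alveolar macrophage markers were abundant, with 14 of 14 listed and Chil3, Marco and Siglecf at a mean of 4874, 596 and 104 FPKM. Along the first principal component CEBPβ-A replicate 3 scored 25.7, away from the other 5 libraries (−11.7 to −0.095). Sequencing depth is unknown, since low FPKM values showed no whole-read steps, so precision rests on the 3 libraries of a group.

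Of the 6 secreted components, 5 had lower means in CEBPβ-A, with no overlap between the groups, and Cfp did not differ beyond its spread. None of the 6 passed the test over all 9617 genes (limma on log2(FPKM + 1), Benjamini-Hochberg adjusted p under 0.05), at which 0.0520% of tested genes passed in either direction. At an unadjusted p under 0.05, 5 of the 6 were lower, where 4.42% of tested genes were, and without CEBPβ-A replicate 3 it was again 5 of 6, beside 2.96%. Groups without overlap and lower in CEBPβ-A made up 8.86% of tested genes. The median log2 fold change of the 6 was −0.34, beside −0.013 over all tested genes. The genes were chosen with earlier results of these data known, so these counts describe them and are no independent support.

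**Figure D1:**
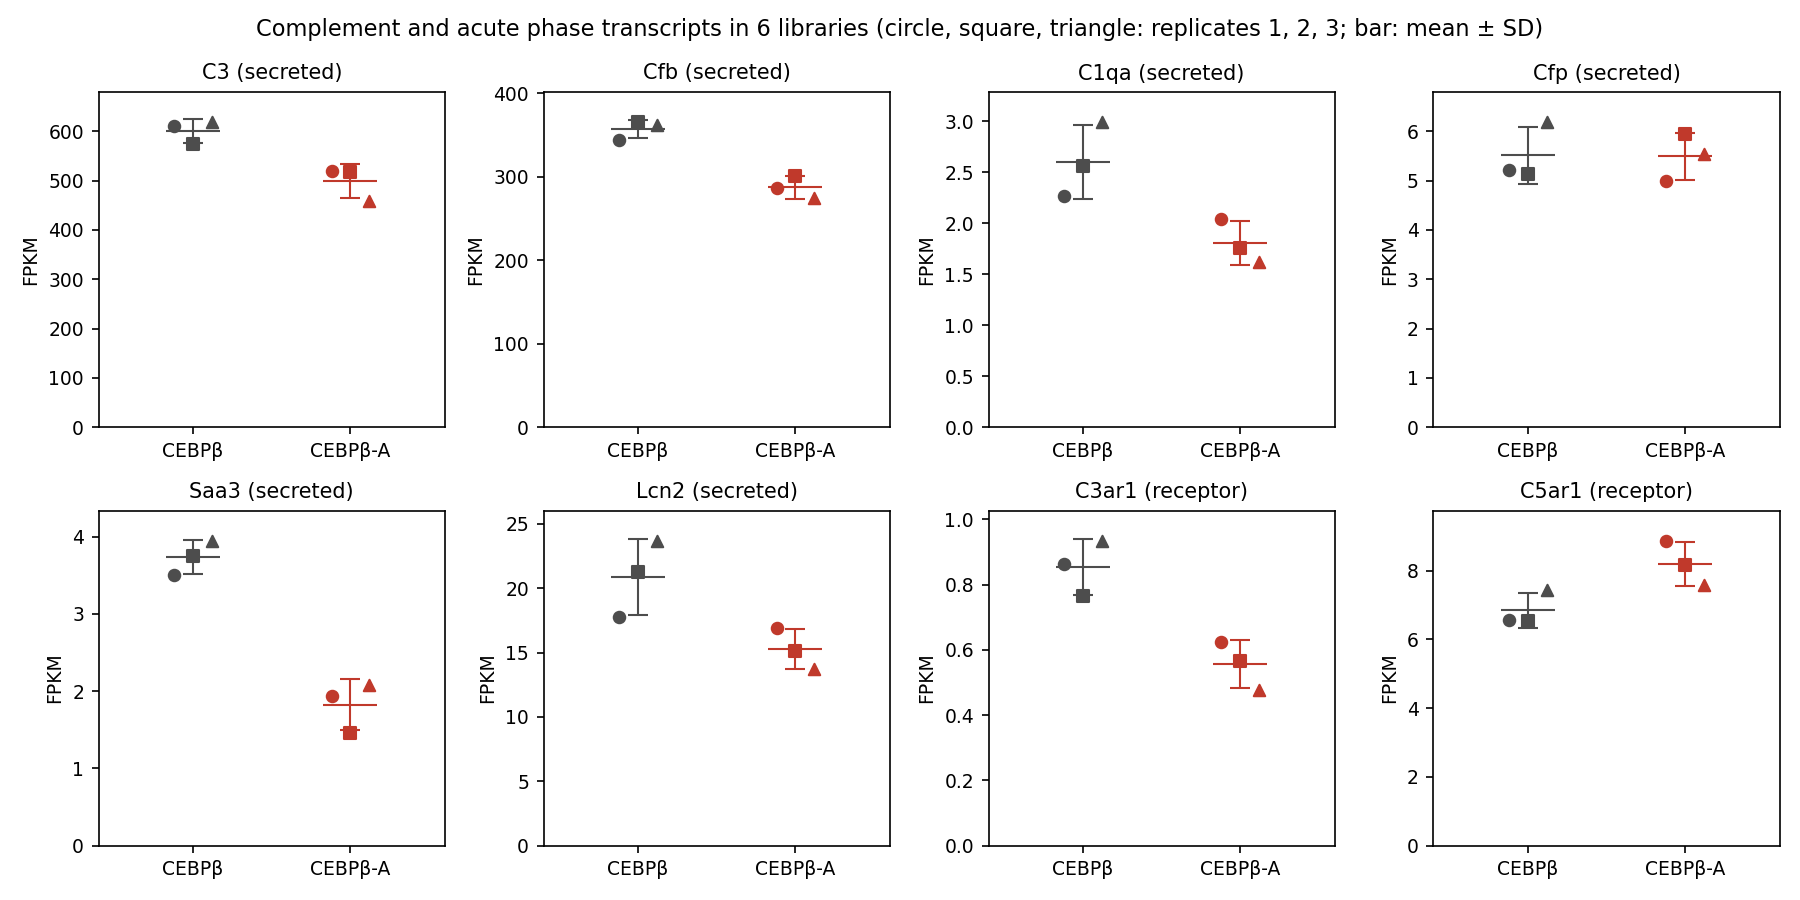
FPKM of the 8 genes (y axis, linear and from 0) in the libraries labelled CEBPβ (grey) and CEBPβ-A (red); points are single libraries and bars the mean ± SD (n = 3). All 3 CEBPβ-A libraries lie below all CEBPβ libraries for C3, Cfb, C1qa, Saa3, Lcn2 and C3ar1, above them for C5ar1, and among them for Cfp.

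C3, on which all complement pathways converge, was among the most abundant transcripts, at rank 52 of 10539 by mean FPKM (ENSMUSG00000024164.15, GRCm38 chromosome 17, 57203970 to 57228136, minus strand). It stood at 610 FPKM in CEBPβ replicate 1, 573 in replicate 2 and 618 in replicate 3, and at 520, 517 and 459 in CEBPβ-A replicates 1, 2 and 3. Every CEBPβ-A library was thus below the lowest CEBPβ library, and replicate 3 of CEBPβ-A was the lowest. The means were 600.4 ± 23.7 and 499 ± 34.2 FPKM (SD, n = 3 each), higher in CEBPβ (log2 fold change −0.27, SE 0.084, limma adjusted p = 0.588). C3 has a long transcript, with 5136 bases in its longest coding form, and long genes had lower fold changes in these libraries, with a median of 0.11 among the 2395 shortest genes and −0.14 among the 2392 longest, to which C3 belongs. With the length trend removed its log2 fold change was −0.17, and without CEBPβ-A replicate 3 it was −0.21.

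Cfb, complement factor B, which supplies the protease of the alternative pathway's C3 convertase, ranked 98 by level (ENSMUSG00000090231.10, chromosome 17, 34856374 to 34862518, minus strand). The CEBPβ libraries held 345, 365 and 362 FPKM and the CEBPβ-A libraries 287, 301 and 274. The groups did not overlap, and the gap between them, from 301 to 345 FPKM, was wider than the range within either group. The mean was 357 ± 11.0 FPKM in CEBPβ and 287 ± 13.5 in CEBPβ-A (SD, n = 3 each), and the difference did not pass the test (log2 fold change −0.31, SE 0.074, 95% interval −0.48 to −0.14, limma adjusted p = 0.588). Gm20547, a protein-coding gene on the same strand, overlaps 79.5% of the exon bases of Cfb, so reads may be shared between them. Its own mean was 0.496 FPKM in CEBPβ and 0.523 in CEBPβ-A, small beside that of Cfb. The ratio of C3 to Cfb was 1.77, 1.57 and 1.71 in CEBPβ and 1.81, 1.72 and 1.67 in CEBPβ-A, and the groups overlapped.

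C1qa, 1 of the 3 chains of the C1q molecule that opens the classical pathway, was a low transcript here (ENSMUSG00000036887.5, chromosome 4, 136895917 to 136898803, minus strand). Its level was 2.27, 2.56 and 2.99 FPKM in CEBPβ and 2.04, 1.76 and 1.62 in CEBPβ-A. The groups did not overlap, though CEBPβ replicate 1 and CEBPβ-A replicate 1 lay close together. The log2 fold change was −0.36 (SE 0.11, limma adjusted p = 0.588), and −0.28 without CEBPβ replicate 3. The partner chains C1qb and C1qc had means of 1.18 and 0.877 FPKM in CEBPβ and 0.891 and 0.768 in CEBPβ-A, with overlapping groups. C1q chains are known as genes of interstitial macrophages. The 7 listed markers of monocytes and interstitial macrophages, which include C1qb and C1qc, summed to 23.5 to 31.1 FPKM in CEBPβ and 22.9 to 23.4 in CEBPβ-A, with Cx3cr1 at 0.838 and 0.679 FPKM on average. Their part in the C1qa values was not tested, and in bulk RNA fewer cells of a type and less RNA per cell cannot be told apart.

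Cfp, properdin, which stabilises the alternative pathway convertase, showed the smallest difference of the 8 genes (ENSMUSG00000001128.7, chromosome X, 20925454 to 20931555, minus strand). It stood at 5.22, 5.13 and 6.18 FPKM in CEBPβ and at 4.995, 5.94 and 5.53 in CEBPβ-A, so the groups overlapped. The log2 fold change was −0.0038 (SE 0.10, limma adjusted p = 0.992), with a 95% interval of −0.24 to 0.24. The sign turned with upper-quartile, median-of-ratios or quantile scaling and without CEBPβ replicate 3 or CEBPβ-A replicate 1, so no direction can be given for Cfp.

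Saa3, the serum amyloid A form made by mouse macrophages, had the largest difference of the 8 genes (ENSMUSG00000040026.8, chromosome 7, 46711998 to 46715700, minus strand). Its level was 3.50, 3.76 and 3.95 FPKM in CEBPβ and 1.94, 1.45 and 2.09 in CEBPβ-A. All CEBPβ-A libraries lay far below the lowest CEBPβ library, and CEBPβ-A replicate 2, not replicate 3, was the lowest. The mean was 2.05-fold higher in CEBPβ (3.73 ± 0.223 against 1.83 ± 0.331 FPKM, SD, n = 3 each), with a log2 fold change of −0.75 (SE 0.11, 95% interval −1.01 to −0.49). It ranked 9 of 9617 genes by p and did not pass (limma adjusted p = 0.195, and 0.0999 to 0.586 over the alternatives that tested it). The added 1 FPKM understates the change of such a low gene, and with a pseudocount of 0.1 the log2 fold change was −1.01.

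Lcn2, lipocalin 2, which binds bacterial iron carriers, was more abundant than Saa3 (ENSMUSG00000026822.14, chromosome 2, 32384633 to 32388252, minus strand). It had 17.7, 21.2 and 23.7 FPKM in CEBPβ and 16.9, 15.1 and 13.8 in CEBPβ-A. The groups did not overlap, but CEBPβ replicate 1 exceeded CEBPβ-A replicate 1 by less than the range within either group. The log2 fold change was −0.42 (SE 0.12, limma adjusted p = 0.588). It was −0.33 without CEBPβ replicate 3 and −0.36 without CEBPβ-A replicate 3. Lcn2 is also a granule gene of neutrophils, whose 6 listed markers (of 12; Ly6g was not analysed here) summed to 263 to 321 FPKM in CEBPβ and to 354 to 385 in CEBPβ-A. That sum was carried by S100a8, at a mean of 233 FPKM in CEBPβ and 295 in CEBPβ-A, and stood higher where Lcn2 stood lower. Among these markers only S100a8 had groups without overlap, higher in CEBPβ-A, as in 7.89% of all tested genes. Of the 6, 5 had a positive log2 fold change, with 0.036 for Cxcr2, and Csf3r had −0.076. Epithelial markers, another known source of Lcn2, had 6 of 13 listed and summed to 35.3 to 45.1 FPKM in CEBPβ and 38.7 to 77.5 in CEBPβ-A, mostly Scgb1a1, whose highest value, 59.4 FPKM, was in CEBPβ-A replicate 3. The surfactant gene Sftpc was not analysed here. The part of either cell type in the Lcn2 values was not tested.

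The 2 anaphylatoxin receptors differed in opposite directions between the groups. C5ar1, the receptor of the leukocyte attractant C5a, was the only one of the 8 genes with a higher mean in CEBPβ-A (ENSMUSG00000049130.6, chromosome 7, 16246743 to 16259540, minus strand). It stood at 6.55, 6.55 and 7.43 FPKM in CEBPβ and 8.86, 8.16 and 7.57 in CEBPβ-A. The groups did not overlap, but CEBPβ replicate 3 and CEBPβ-A replicate 3 were 7.43 and 7.57. The log2 fold change was 0.23 (SE 0.094, 95% interval 0.011 to 0.45) and did not pass (unadjusted p = 0.0416, limma adjusted p = 0.588), beside 3.76% of tested genes that were higher at that unadjusted p and 7.89% whose groups lay apart in this direction.

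C3ar1, the receptor of C3a, was at the low end of the listed genes, at rank 10009 of 10539 (ENSMUSG00000040552.8, chromosome 6, 122847138 to 122856161, minus strand). Its level was 0.863, 0.764 and 0.934 FPKM in CEBPβ and 0.624, 0.565 and 0.477 in CEBPβ-A. No CEBPβ-A library reached the lowest CEBPβ library, a pattern that 9.04% of all listed genes showed in this direction. With no filter on low values its log2 fold change was −0.25 (SE 0.084, limma adjusted p = 0.595), on a scale where the added 1 FPKM exceeds the gene's own level. The ratio of C5ar1 to C3ar1 was 7.60, 8.57 and 7.96 in CEBPβ and 14.2, 14.5 and 15.9 in CEBPβ-A, with no overlap. This ratio was formed after the values were seen and is given without a test.

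**Figure D2:**
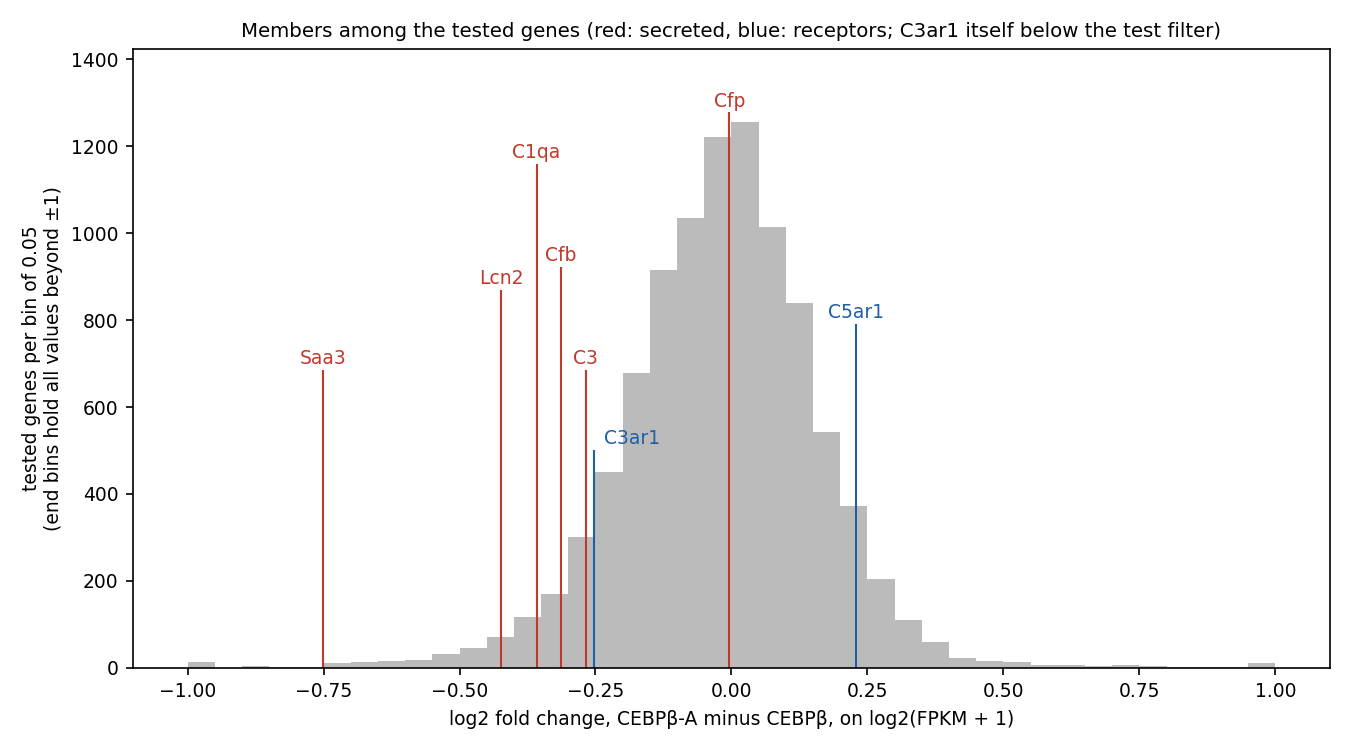
Histogram of log2 fold changes (x axis, CEBPβ-A minus CEBPβ) of the 9617 tested genes, with the number of genes per bin on the y axis and vertical lines at the secreted members (red) and the receptors (blue). Saa3 at −0.75 lies in the far lower tail, Cfp at −0.0038 in the middle and C5ar1 at 0.23 on the upper flank; the heights of the lines carry no value.

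Read against all tested genes, 0.250% had a lower log2 fold change than Saa3, 1.95% than Lcn2, 3.28% than C1qa, 4.74% than Cfb and 7.30% than C3, as the histogram of fold changes shows. For C5ar1 the share was 93.7% and for Cfp 52.3%. By level per length the genes ran from C3 at a mean of 549.6 FPKM over Cfb at 322, Lcn2 at 18.1, C5ar1 at 7.52, Cfp at 5.50, Saa3 at 2.78 and C1qa at 2.21 to C3ar1 at 0.704. Of neighbours in this order, C5ar1 exceeded Cfp in all 6 libraries, as C3 exceeded Cfb, whereas Saa3 exceeded C1qa in 3 of 3 CEBPβ but only 1 of 3 CEBPβ-A libraries. Within CEBPβ-A, the median log2 deviation of the 6 secreted genes from the CEBPβ mean was −0.26, −0.31 and −0.42 in replicates 1, 2 and 3. Over all tested genes it was −0.0029, 0.0102 and −0.0376. In CEBPβ the 6 genes were at −0.067, −0.0031 and 0.10, where the libraries are centred by construction.

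**Figure D3:**
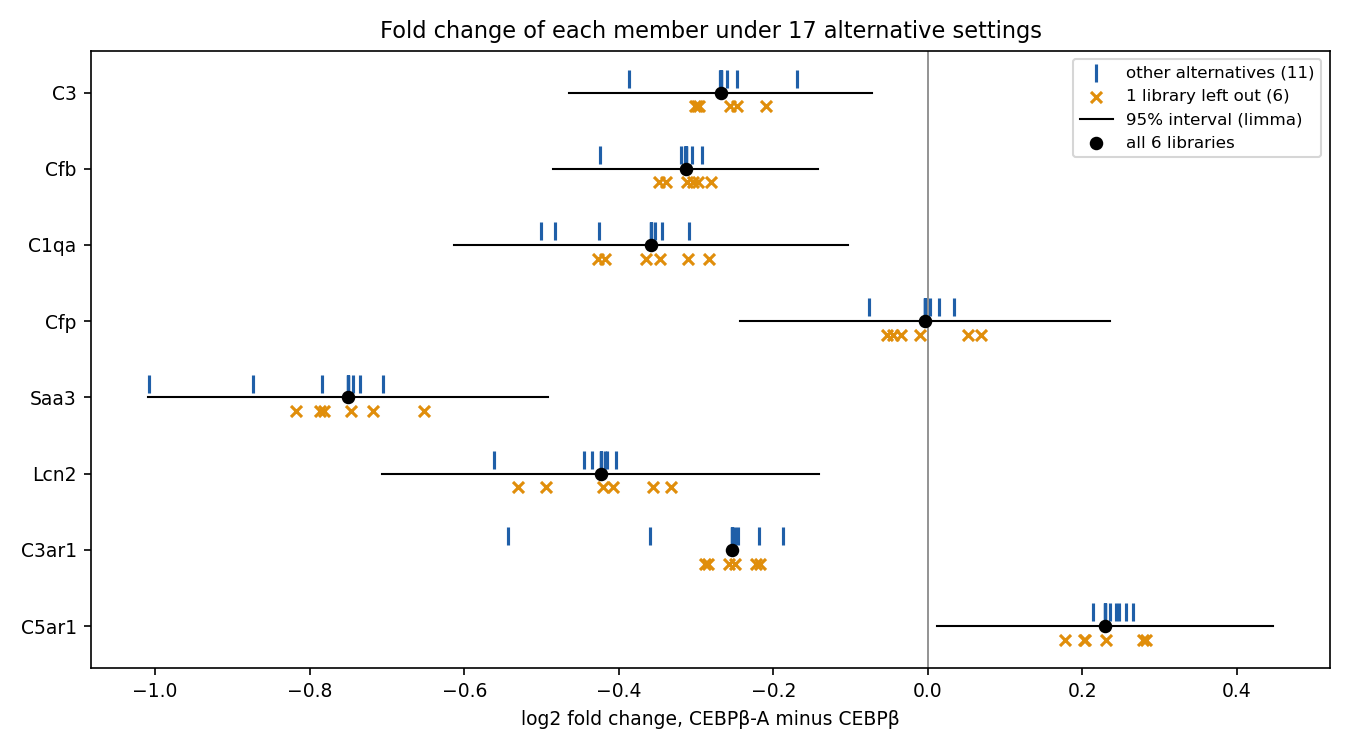
Log2 fold change of each gene (x axis) with all 6 libraries (black point, with limma's 95% interval), with 1 library left out (orange crosses) and under 11 other settings (blue bars). Of the 8 genes, 7 keep their sign throughout, while Cfp runs from −0.076 to 0.068; C3ar1, below the filter, has no interval.

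Over the 17 alternative settings the log2 fold change ran from −1.01 to −0.65 for Saa3, −0.56 to −0.33 for Lcn2, −0.50 to −0.28 for C1qa, −0.42 to −0.28 for Cfb and −0.39 to −0.17 for C3. It ran from 0.18 to 0.28 for C5ar1 and from −0.54 to −0.19 for C3ar1. No member passed the threshold in any of the 17 that tested it. With the length trend removed the differences of Lcn2 and C1qa, both with short transcripts, were −0.56 and −0.48, farther from 0 than before, while that of C3 was nearer to 0, as the plot of alternatives shows.

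The other complement genes were mostly low or not analysed here. Of 32 further secreted components 9 were listed and 4 tested, and none passed with limma (0 of 4 at an unadjusted p under 0.05). Their median log2 fold change was −0.16. C2, the classical-pathway paralogue and neighbour of Cfb, stood at 4.44, 5.18 and 5.20 FPKM in CEBPβ and 4.31, 4.09 and 4.31 in CEBPβ-A. Of the 4 tested genes C2 alone was lower without overlap, by a narrow gap (4.44 against 4.31), beside 8.86% of all tested genes. It did not pass (log2 fold change −0.18, SE 0.091, limma adjusted p = 0.589). The protease C1ra, the highest of the list at a mean of 15.2 FPKM, had 0.088, and its near-identical copy C1rb had −0.13, so the split of reads between them is uncertain.

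Receptors and membrane regulators of complement were far more abundant and lay around 0. Of 18 genes 9 were listed, in 10 tested rows because Itgam appears under 2 overlapping identifiers, and 0 passed, with 5 rows of each sign and a median log2 fold change of 0.0020 (−0.047 after quantile normalization). Itgb2 and Itgax, the chains of complement receptor 4 for C3 fragments, averaged 649 and 494 FPKM and had log2 fold changes of −0.017 and −0.11. Itgam, the partner of Itgb2 in complement receptor 3, had −0.45 in its higher row (limma adjusted p = 0.588) and 0.027 in the other, and reads may be divided between these rows. Calr, the chaperone that binds C1q, had 0.061, the C1q-binding protein C1qbp 0.17 and the scavenger receptor Lrp1 −0.28, none past the threshold.

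Acute phase proteins other than Saa3 and Lcn2 showed no common direction. Of 37 genes 12 were listed and tested, 6 with each sign, and 0 passed with limma (1 at an unadjusted p under 0.05, Il1rn, beside 3.76% of tested genes higher). Haptoglobin, Hp, which binds free haemoglobin, held 310, 312 and 307 FPKM in CEBPβ and 252, 234 and 324 in CEBPβ-A, so 1 CEBPβ-A library exceeded all of CEBPβ (log2 fold change −0.21, SE 0.12, limma adjusted p = 0.596). The interleukin-1 receptor antagonist Il1rn, at 6.46 ± 0.575 FPKM in CEBPβ and 7.98 ± 0.260 in CEBPβ-A (SD, n = 3 each), and the metallothionein Mt1 had log2 fold changes of 0.27 and 0.19, with all CEBPβ-A libraries above all of CEBPβ, as in 7.89% of tested genes. The iron stores Fth1 and Ftl1 and the iron carrier Trf, the most abundant of the list, had 0.16, 0.12 and −0.070.

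Receptors for acute phase proteins were measured in 8 of 10 cases, and 0 passed, in either direction or at an unadjusted p under 0.05. The formyl peptide receptors Fpr1 and Fpr2, the latter a receptor of serum amyloid A, averaged 394 and 271 FPKM with log2 fold changes of 0.010 and 0.13. The scavenger receptors Cd36 and Scarb1 had −0.015 and 0.17, and the lipocalin 2 receptor Slc22a17 had −0.19. Tlr4, the endotoxin receptor, stood at 1.56, 1.75 and 2.01 FPKM in CEBPβ but at 1.05, 8.74 and 5.74 in CEBPβ-A, so its log2 fold change of 0.89 comes from 2 of 3 libraries and the groups overlap (SE 0.50, limma adjusted p = 0.591).

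**Figure D4:**
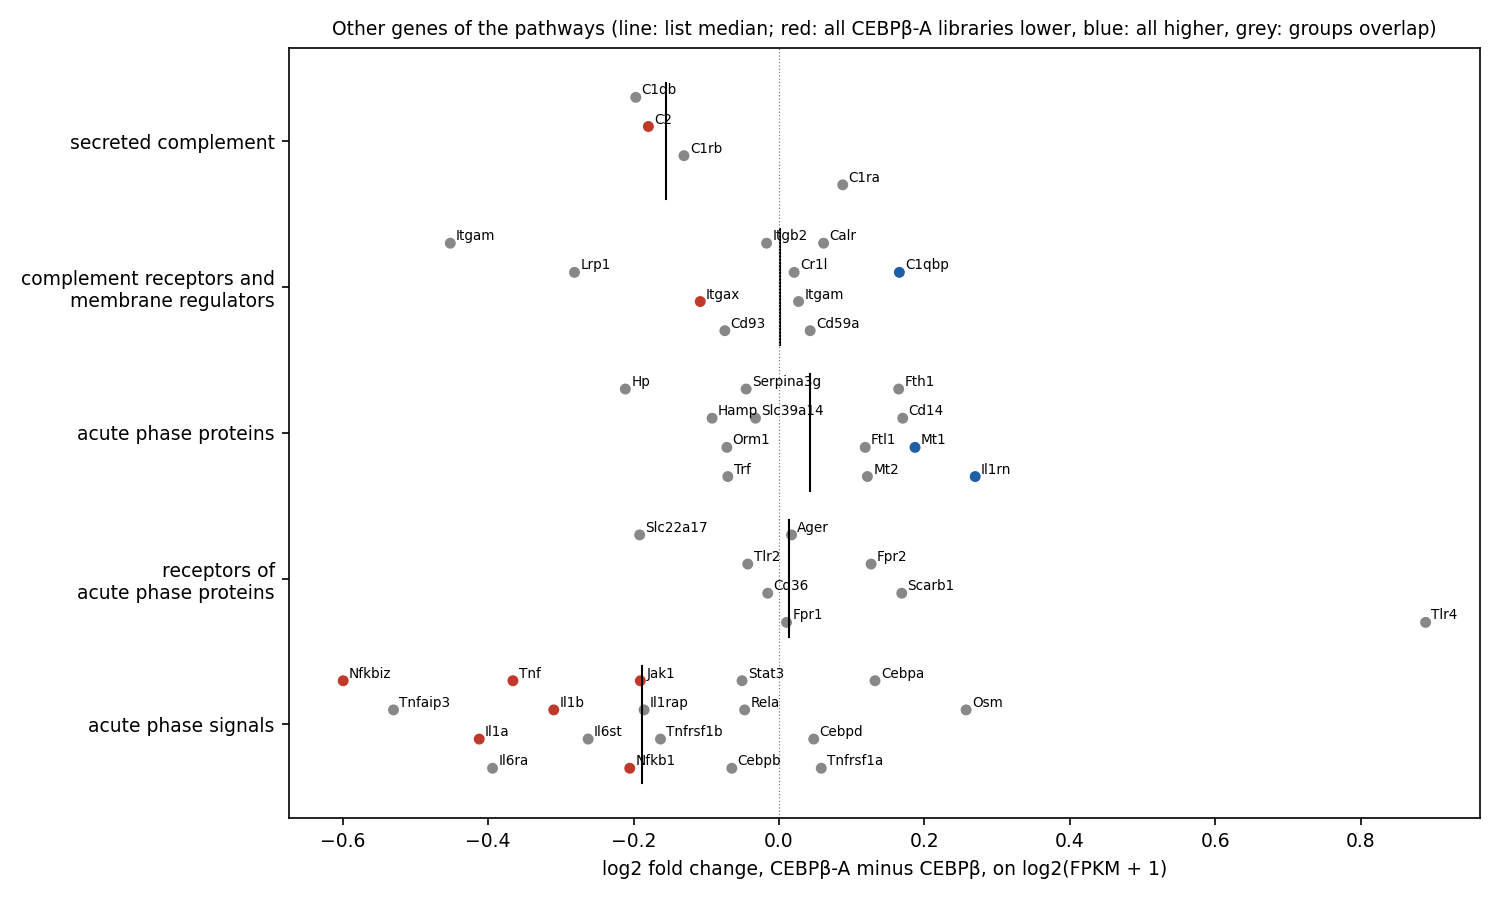
Log2 fold changes (x axis) of the tested genes in the 5 lists of other complement and acute phase genes (rows; vertical offsets within a row separate labels only), with the list median as a black line. The acute phase signals lie furthest to the left, with a median of −0.19, and the lists of receptors lie around 0.

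Genes that signal the acute phase response were lower more often than not. Of 24 genes 18 were tested, 14 with a lower mean in CEBPβ-A, where 53.4% of all tested genes were lower, and 6 had no overlap between groups, all lower, beside 8.86% of all tested genes. None passed with limma. At an unadjusted p under 0.05, 6 were lower and 0 higher, beside 4.42% of tested genes lower, and without CEBPβ-A replicate 3 there were 4 lower, beside 2.96%. The list, which includes Tnfaip3, was chosen with earlier results of these data known, so these counts describe it and are no independent support. Nfkbiz, an IκB-family cofactor of inflammatory genes, stood at 8.56, 8.10 and 8.68 FPKM in CEBPβ and 5.67, 5.49 and 4.60 in CEBPβ-A (log2 fold change −0.599, SE 0.096, limma adjusted p = 0.265). The cytokines Il1a and Tnf had log2 fold changes of −0.41 and −0.37 with adjusted p of 0.462 and 0.561 by limma. The transcription factors of the C/EBP family were close to 0, at −0.065 for Cebpb, 0.13 for Cebpa and 0.048 for Cebpd, and the TNF receptor Tnfrsf1b had −0.16. The gene of interleukin-6 itself was not analysed here.

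Genes with the most similar profile over the 6 libraries were found by the root-mean-square difference of centred log2(FPKM + 1) values among 6069 genes with a mean of at least 5 FPKM, symbols of the form Gm plus digits left out. For Saa3 they were the neutrophil chemokine Cxcl2 and Insl6, at 0.12 and 0.14, beside a spread of Saa3 itself of 0.39 about its mean. Cfb was closest to H2-Q7 and Tgfbi (0.027 and 0.0495), C3 to Snx19 and Abl1 (0.026 and 0.032) and Lcn2 to H2-Q6 and Bst2 (0.047 and 0.065), where H2-Q6 and H2-Q7 are near-identical MHC class I genes whose reads may be shared. C1qa was closest to Afdn and to Lcn2 (0.051 and 0.055), Cfp to Ppp1r8 and 1500011B03Rik, C3ar1 to Tmco3 and Snx19, and C5ar1 to Plin1 and Eif2b1. Many genes vary little over 6 libraries and share their scaling, so such likeness is a description.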

How the data were processed

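RNA of 6 libraries, 3 labelled CEBPβ and 3 CEBPβ-A, was sequenced after TRIzol extraction and stranded library preparation with a KAPA kit, per the labels' protocols. The authors deposited gene-level FPKM for each library, per the file headers. The submitters' processing notes name GRCm38. For the aligner, the counting program, its use of strand and the listing of 10539 protein-coding genes, the sources used here give nothing. The highest periodicity of low FPKM values was 0.121 to 0.157, where 1 would be perfect whole-read steps, so no counts were recovered.

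Genes with a mean of at least 1 FPKM (9617) were put on the log2(FPKM + 1) scale and fitted with limma 3.58.1 in R 4.3.3, with an intensity trend, as CEBPβ-A minus CEBPβ without covariates. Two-sided p-values were adjusted over all tested genes by Benjamini-Hochberg, with a threshold of 0.05. The members and lists were chosen with earlier results of these data known. Named genes were the members, Tnfaip3, Cebpb, stated partners, the 3 highest and 3 smallest p per list, the 2 nearest profiles per member, and leading markers. Other settings tried were a pseudocount of 0.1 or 0.5, no filter or one at 5 FPKM, 3 scalings, a fit with no trend, a robust prior, the replicate block, removal of the length trend (lengths from GENCODE M21) and each library left out. Of the other marker lists, fibroblast and endothelium had 2 of 9 listed (6.32 to 9.18 FPKM summed), dendritic cells 1 of 6 (0.177 to 0.467 FPKM) and lymphocytes 0 of 9.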

Additional observations from a re-analysis of the deposited data

How the results depend on the processing

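The direction of C3, Cfb, C1qa, Saa3, Lcn2, C3ar1 and C5ar1 held under all 17 alternatives, and no member or other complement or acute phase gene of the lists passed the threshold under any. The fold change of Cfp reversed with upper-quartile scaling (0.0029), median-of-ratios scaling (0.014), quantile normalization (0.033), without CEBPβ replicate 3 (0.068) and without CEBPβ-A replicate 1 (0.052), with −0.053 to 0.068 over single libraries left out; the cause was not tested. The median of the 2 receptors, −0.012, was −0.14 with a pseudocount of 0.1, which by construction enlarges the change of the low gene C3ar1. Over all tested genes 5 passed; the count was 0 with a mean of at least 5 FPKM, where fewer genes were tested, 3 after quantile normalization, 8 with the length trend removed (4 shared with the 5), and 1 to 9 with single libraries left out, the highest without CEBPβ-A replicate 3. With the replicate block 1 gene passed, and Saa3 had a limma adjusted p of 0.285 (0.0999 to 0.586 over the alternatives that tested it). The numbers were not taken to pair libraries, since deviations of same-numbered libraries correlated at 0.0993, 0.247 and 0.259, not all above 0.1, although each library correlated best with its own number. Differently numbered pairs ran from −0.245 to 0.0869, so a pairing is not excluded, and the main fit does not use it. The counts without CEBPβ-A replicate 3 at an unadjusted p were added after seeing the data. With 3 libraries a group and unknown depth, small differences of low genes such as C3ar1 and C1qa cannot be resolved.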
